A study of Mus musculus with 30 samples.

Results

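CT-26 and Colon 26 are mouse colon carcinoma lines of BALB/c origin that are implanted in mice to model the response to checkpoint antibodies. A set of 30 protein-coding genes was selected on the deposited counts of the cultured cells: 3 counts or fewer in each of the 3 Colon 26 cultures and 100 counts or more in each of the 3 CT-26 cultures. The deposited table holds 53431 genes, of which 10145 had 100 counts or more in every CT-26 culture. Genes of the large signalling, adhesion and matrix families were left out by their symbols, which removed 1 gene, Krt18, a keratin of simple epithelia. Poly-A RNA was sequenced from those cultures and from 24 tumors, which grew from cells implanted under the skin of the flank in female mice of the BALB/c strain and were taken as 4 tumors of each model at target volumes of 100, 400 and 800 mm3. No label names an antibody for any library, and the tumors were therefore taken as untreated, although the labels' treatment text describes antibody dosing. The labels give neither the age of the mice nor whether the cultures were grown separately, so p-values may measure only the spread between these samples.

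The selection describes the cells in culture and not the tumors. In the tumors, 19 of the 30 genes had more than 3 counts in every one of the 12 Colon 26 tumors, so the name "on only in CT-26" held for the cultured cells alone. Another 7 genes were at 3 counts or fewer in all 12 Colon 26 tumors, and 4 lay between. A tumor is a mixture of the implanted cells and of host leukocytes, vessels and stroma, so its RNA can hold transcripts of a gene that the implanted cells do not make. In such bulk RNA, fewer cells of a type and less RNA per cell cannot be told apart.

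The genes belong to many families. Several are known from the nervous system. Slc1a2 encodes the main glutamate transporter of astrocytes, Syt1 the calcium sensor of synaptic vesicles, and Gap43 a protein of growing axons, and Prune2 and Faxc are also best known from the nervous system. Others move molecules across membranes or act as receptors. Slc6a12 encodes a carrier of betaine and GABA, Atp13a4 a P-type ATPase, Gfral the hindbrain receptor of GDF15, and Gpr141 an orphan G-protein coupled receptor. Further genes regulate signalling: Arap2 acts on small GTPases, Rgs17 speeds the shut-off of G proteins, and Prkar1b is a regulatory subunit of protein kinase A. Ly9, a receptor of the SLAM family, and Ctla2a, an inhibitor of cysteine proteases, are known from lymphocytes. H2-M10.1 is an MHC class I-like gene that is known from vomeronasal neurons. Counted by symbol, the set held 2 genes of the zinc finger list (Zfp40 and Zfp991) and 3 of the list of transporters and channels. It held 2 of the list of enzymes of sugar chains, lipids and small molecules. These lists held 327, 272 and 145 of the 10145 genes on in CT-26 cultures. No gene of the adhesion, cytoskeleton, germline or imprinted lists was in the set. Those lists held only 30, 90, 19 and 4 of the 10145, too few for their absence from 30 genes to describe the set.

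The 30 genes lay on 16 chromosomes, with at most 3 on any of them, and none was the immediate protein-coding neighbour of another. Of the 60 flanking protein-coding genes, 17 had 100 counts or more in every culture of both lines, 21 had 100 or more in every CT-26 culture, and 34 were at 3 counts or fewer in every Colon 26 culture. The shares over all protein-coding genes were not computed, so these counts are description only. No flanking gene met both thresholds. The closest was Dthd1, next to Arap2, with a mean of 700.3 counts in CT-26 cultures and 2.3 in Colon 26 cultures, where 1 culture had 4 counts. Pawr, next to Syt1, had 357.0 and 8.0 mean counts in the same comparison and was also low in the Colon 26 tumors, with means of 7.0 to 14.8 counts against 185.8 to 221.2 in CT-26 tumors. Serpinb2, next to Serpinb7, had 62.3 and 0.3 mean counts in CT-26 and Colon 26 cultures. In the tumors its means were higher in Colon 26, at 187.0 to 447.8 counts against 65.3 to 111.3 in CT-26. The 30 genes spanned 0.5 to 647.3 kb, and 8 of them spanned over 100 kb: Arap2, Atp13a4, Enox2, Mctp1, Prkar1b, Prune2, Slc1a2 and Syt1.

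Promoters are shown for 4 genes that were on in CT-26 cultures and then differed in CT-26 tumors: Rgs17 and Syt1 stayed on, and Gfral and Slc6a12 were at or near the limit of counting. Each is the 250 bases before a RefSeq start of the gene in GRCm38.p6, 5′ to 3′ on the strand of the gene, with every CG in capitals. Syt1 has 2 RefSeq starts and Slc6a12 has 5, and the start nearest the GENCODE start was used. Rgs17 (minus strand, chr10:5922401-5922650) held 27 CG and Syt1 (minus strand, chr10:109010976-109011225) held 8. Gfral (minus strand, chr9:76213658-76213907) held 2 and Slc6a12 (plus strand, chr6:121342826-121343075) held 4.
Rgs17: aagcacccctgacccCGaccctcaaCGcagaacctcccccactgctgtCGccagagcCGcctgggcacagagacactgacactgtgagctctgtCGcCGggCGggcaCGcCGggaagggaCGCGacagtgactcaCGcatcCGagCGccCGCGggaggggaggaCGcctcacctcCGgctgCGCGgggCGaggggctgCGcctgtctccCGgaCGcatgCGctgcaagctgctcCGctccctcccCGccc
Syt1: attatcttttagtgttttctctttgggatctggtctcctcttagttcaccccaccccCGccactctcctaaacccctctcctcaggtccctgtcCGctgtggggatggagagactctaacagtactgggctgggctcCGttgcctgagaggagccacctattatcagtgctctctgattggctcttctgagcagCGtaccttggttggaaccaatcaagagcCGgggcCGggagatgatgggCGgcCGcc
Gfral: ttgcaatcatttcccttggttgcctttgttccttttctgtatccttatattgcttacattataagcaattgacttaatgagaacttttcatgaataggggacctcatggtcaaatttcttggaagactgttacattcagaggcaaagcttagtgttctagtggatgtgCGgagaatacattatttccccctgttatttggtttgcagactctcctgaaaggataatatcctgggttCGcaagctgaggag
Slc6a12: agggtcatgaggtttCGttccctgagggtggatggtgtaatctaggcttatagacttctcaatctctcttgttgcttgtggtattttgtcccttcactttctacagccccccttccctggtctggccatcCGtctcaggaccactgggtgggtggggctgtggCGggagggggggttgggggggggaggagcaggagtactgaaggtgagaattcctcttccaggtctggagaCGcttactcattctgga
RefSeq promoters were found for 20 of the 30 genes, with 0 to 36 CG and a median of 5.5, beside 6 over 32851 mouse promoters. The set counts 1 promoter per gene, while the 32851 belong to 27025 genes. At least 10 CG were present in 7 of the 20, against 37.8% of all promoters. Both strands were searched for 5 motifs. The AP-1 motif TGANTCA was in 6 of the 20 promoters and in 6.7% of all, CCAAT in 10 and 33.8%, the GC box GGGCGG in 10 and 32.7%, TATAAA in 3 and 12.4%, and the E-box CACGTG in 2 and 6.0%. Rgs17 held TGANTCA and GGGCGG, Syt1 held CCAAT and GGGCGG, and Gfral and Slc6a12 held none of these motifs. Other genes of the set did not all share this contrast. Atp13a4, likewise near the limit in CT-26 tumors, held 9 CG, the AP-1 motif, the GC box and CCAAT, and H2-M10.1 held 3 CG and CCAAT. Of the genes that stayed on, Faxc held 31 CG, the GC box and the E-box, Slc1a2 held 1 CG and none of the motifs, and Serpinb7 held 0 CG, TATAAA and the AP-1 motif. The RefSeq starts of Mctp1, Slc1a2 and Serpinb7 lie 195062, 47779 and 23034 bases from their GENCODE starts. Mctp1 and Serpinb7 are among the 6 promoters with the AP-1 motif, so that count rests partly on windows far from the GENCODE start. These matches describe letters in the window and were not tied to the binding of any factor.

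Levels in the cultures are given as description, because these counts chose the genes. Per length, the CT-26 culture means ran from 1.32 FPKM (Rgs17) to 25.04 FPKM (Prune2), with a median of 4.64, and 8 genes were above 10 FPKM. FPKM is the count scaled by transcript length and library total. Prune2 had 5620, 7627 and 6828 counts in the CT-26 cultures and 0, 2 and 2 in the Colon 26 cultures. Arap2 had 2041, 2658 and 2279 counts against 0 in each, and Slc1a2 had 2013, 2642 and 2159 against 1, 0 and 2. After Prune2, the highest means were those of Ddt, a tautomerase of the MIF family, at 15.6 FPKM ± 1.3 (SD, n = 3), Arap2 at 13.0 ± 0.037, Slc1a2 at 12.3 ± 1.2 and the histone gene Hist2h2aa2 at 12.1 ± 1.3. These 4 means lay within a few FPKM of each other, and those of Slc1a2 and Hist2h2aa2 did not differ beyond their spread. The level of Hist2h2aa2 is uncertain, because annotated genes of identical sequence were counted in the cultures of both lines. Fam83f, of a family that binds casein kinase 1, had 11.2 FPKM ± 0.41, Ly9 had 10.7 ± 0.47, and Manea, a Golgi mannosidase, had 10.1 ± 0.27.

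At the edge of the selection, B4galt6, Gap43 and Slc6a12 were among those that reached 3 counts in a Colon 26 culture, and Ank2, Dthd1 and Fam135a were outside with 4. On the other side, Zfp40 had a lowest CT-26 count of 104, and H2-M10.1 and Mctp1 of 111, while Gm3765 with 93 and Akap17b and Slc26a7 with 90 stayed outside. The Colon 26 cultures were sequenced more deeply, with 36042940 to 39722586 counts against 21384730 to 27856380, and the tumors had 22923606 to 35681914. The cultures of each line carry their own series of library numbers, so line and library series cannot be told apart.

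Marker genes were read to see what else the libraries held. In both cultured lines the epithelial genes Cdh1 and Epcam were at 3 counts or fewer, so these defining markers of colon epithelium were absent from both. Summed over 7 colon epithelium markers, CT-26 cultures had 41.0 to 42.5 CPM and Colon 26 cultures 11.3 to 12.04, where CPM is the count scaled to a common library size after normalisation. The leukocyte list (11 genes) summed to 64.9 to 72.4 CPM in CT-26 cultures and 6.71 to 8.04 in Colon 26 cultures. Most of the former was Cd68, at 61.7 CPM ± 4.1 (SD, n = 3), while the pan-leukocyte gene Ptprc was at 0.16 ± 0.061 and Cd3e, Cd8a, Adgre1, Ncr1 and S100a8 were at 3 counts or fewer. The tumors of both models held host RNA, with leukocyte sums of 507 to 2644 CPM in CT-26 and 1313 to 3151 CPM in Colon 26 tumors.

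The Colon 26 tumor of 400 mm3 that is replicate 1 stood apart. Its 6 skeletal muscle markers summed to 2739 CPM, while the other 3 tumors of its group had 2.67 to 7.97 CPM. It was also the highest of its group in leukocyte markers (3151 against 1313 to 1991 CPM), pericyte and smooth muscle markers (358 against 165 to 176 CPM), adipocyte markers (46.6 against 6.06 to 11.5 CPM) and nerve markers (7.37 against 3.82 to 4.43 CPM). Of the 19 genes found in every Colon 26 tumor, 14 were highest in this library among the 4 of its group and 4 were lowest. The shares of all genes that did so were not computed, so these counts cannot be read as a trait of the 19 genes. The part of this other RNA in their levels was not tested, and values without this library are given where they changed a result.

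**Figure D1:**
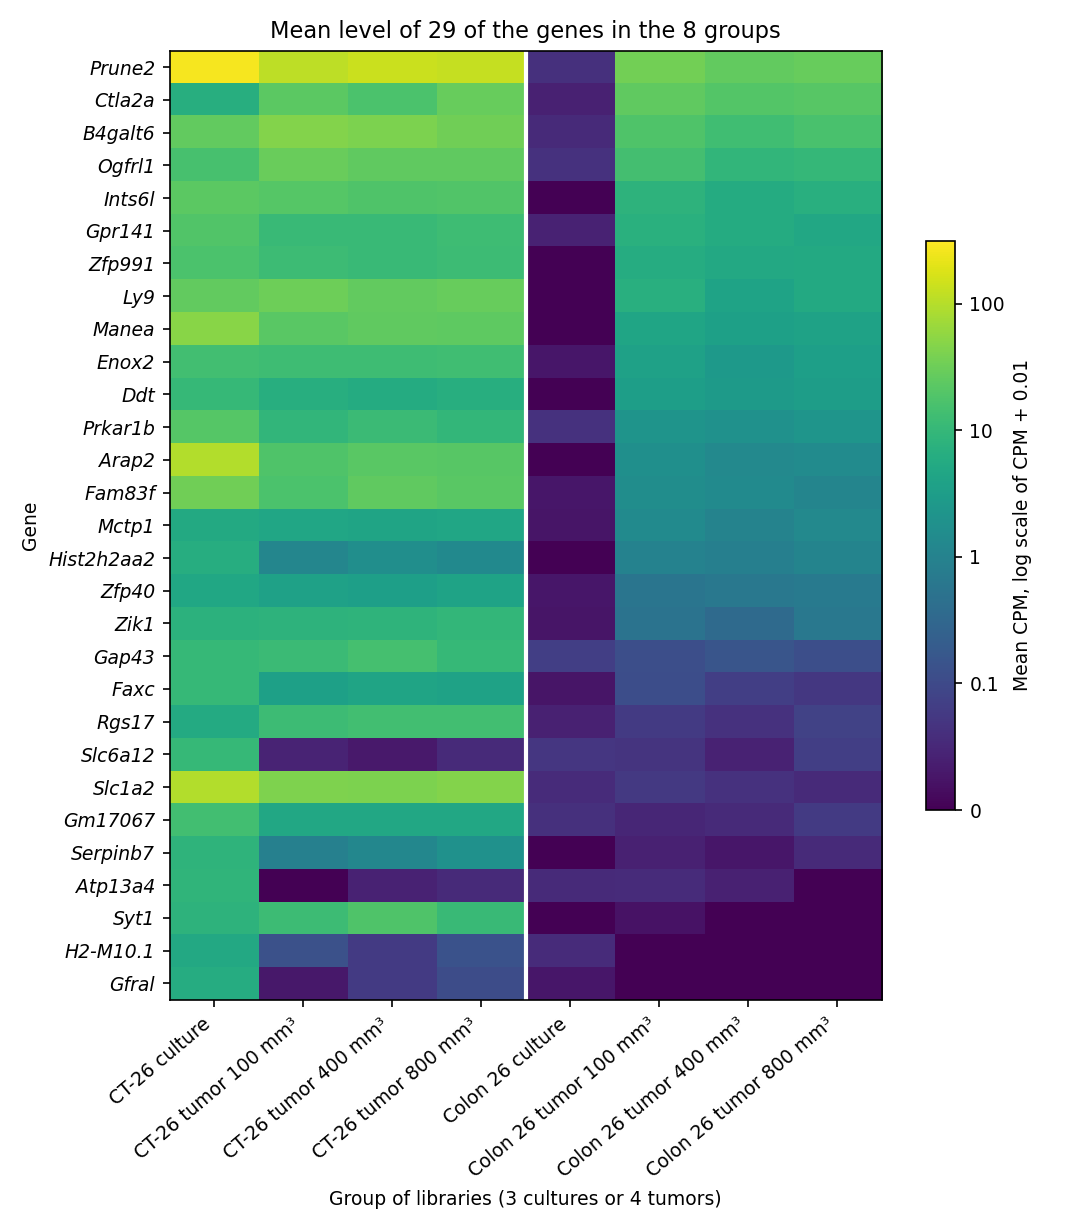
Mean CPM of 29 of the 30 genes (rows) in the 8 groups of libraries (columns), on a logarithmic color scale of CPM + 0.01. The genes are ordered by their mean in Colon 26 tumors: the upper 18 rows were found in every Colon 26 tumor, and Slc6a12, Atp13a4, H2-M10.1 and Gfral were dark in the tumors of both models.

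The first group of genes stayed on in CT-26 tumors and was at or near the limit of counting in Colon 26 tumors. It consisted of 7 genes: Slc1a2, Syt1, Gap43, Rgs17, Faxc, Serpinb7 and Gm17067. These are the genes that passed the filter on low counts only through the CT-26 tumors, so they had to differ, and their 7 calls at each volume are description. Slc1a2 had 49.6, 51.6, 37.4 and 31.0 CPM in the CT-26 tumors of 100 mm3, 27.0, 45.0, 45.7 and 43.9 CPM at 400 mm3 and 39.6, 61.9, 50.7 and 29.0 CPM at 800 mm3. In the Colon 26 tumors it had 0 to 4 counts, or at most 0.11 CPM, so the models did not overlap. The mean of Slc1a2 was at least 389-fold and 459-fold higher in CT-26 tumors at 400 and 800 mm3, where every Colon 26 tumor was at 3 counts or fewer. At 100 mm3 the Colon 26 tumors had 1, 4, 1 and 0 counts, and without the tumor with 4 counts the excess was at least 382-fold. These bounds set 3 counts per library as the level of the absent group.

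Syt1 was all but uncounted in Colon 26 tumors, with 1 count in 1 of the 12 libraries and 0 in the others. In the CT-26 tumors it had 8.36, 13.8, 13.1 and 13.0 CPM at 100 mm3, 20.4, 17.4, 21.7 and 12.7 CPM at 400 mm3 and 5.30, 14.2, 9.37 and 16.5 CPM at 800 mm3. The CT-26 excess was thus at least 116-fold at 100 mm3, 174-fold at 400 mm3 and 115-fold at 800 mm3. Rgs17, with 9.71 to 15.7 CPM in CT-26 tumors and at most 3 counts in any Colon 26 tumor, had an excess of at least 117-fold, 130-fold and 136-fold. Both genes were above their culture level in the CT-26 tumors, Syt1 at 174% and Rgs17 at 235% of the culture mean. Serpinb7, an intracellular serine protease inhibitor, had 0.49 to 4.33 CPM in CT-26 tumors, or 15.8% of the culture mean, and at most 2 counts in Colon 26 tumors. Its highest value was in the CT-26 tumor of 800 mm3 that is replicate 4, whose 5 skin epithelium markers summed to 77.1 CPM, against 3.19 to 6.37 CPM in the other CT-26 tumors. Without that tumor its CT-26 values ran from 0.49 to 1.71 CPM. The part of skin RNA in it was not tested.

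Gap43, Faxc and Gm17067 passed 3 counts in some Colon 26 tumors. Gap43 had 1 to 6 counts there, and was over 3 counts in 5 of the 12 tumors, against 173 to 534 counts in CT-26 tumors. Its mean CPM in CT-26 tumors was 104-fold, 105-fold and 95.2-fold that in Colon 26 tumors at the 3 volumes. Faxc had 0 to 4 counts against 63 to 142, and Gm17067, a protein-coding locus without a name, had 0 to 4 against 95 to 187.

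**Figure D2:**
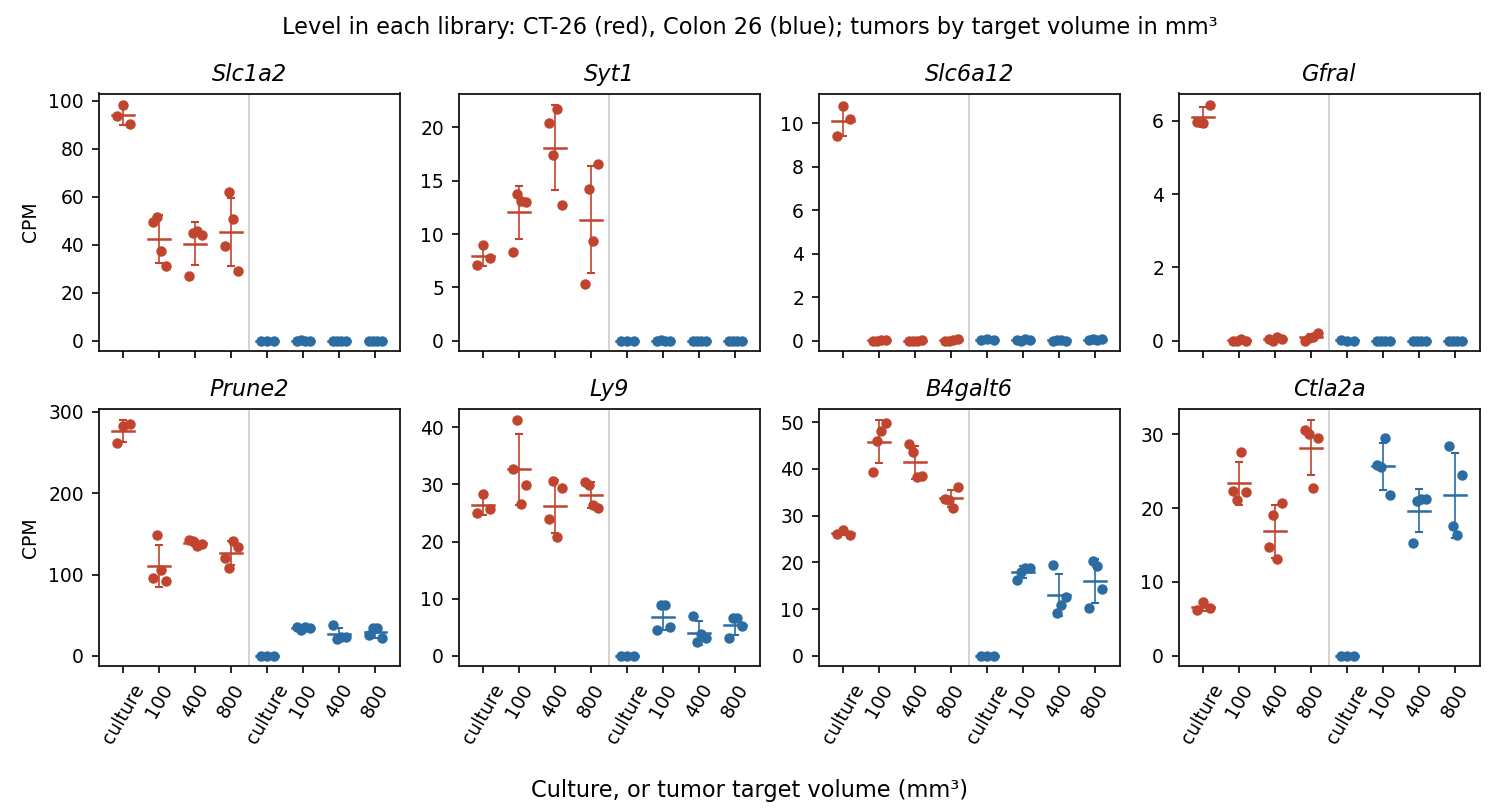
CPM of 8 genes in each library, with CT-26 in red and Colon 26 in blue; dots are libraries, lines are group means and bars are SD (3 cultures or 4 tumors). Slc1a2 and Syt1 stayed on in CT-26 tumors only, Slc6a12 and Gfral were near 0 in the tumors of both models, B4galt6 was lower in Colon 26 than in CT-26 tumors, and Ctla2a reached 15.3 to 29.4 CPM in Colon 26 tumors although it was near 0 in Colon 26 cultures.

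The second group of genes was on in the CT-26 cultures but was not carried into CT-26 tumors. Slc6a12 had 202, 291 and 244 counts in the CT-26 cultures, and 0 to 2 counts in the 12 CT-26 tumors. Atp13a4 had 200, 231 and 196 counts in the cultures and likewise 0 to 2 in the tumors. Their CT-26 tumor level was thus at most 1.07% and 1.25% of the culture mean. Gfral had 128, 160 and 154 counts in the CT-26 cultures and 0 to 7 in the CT-26 tumors, or 0.88% of the culture mean. H2-M10.1 had 111, 131 and 137 counts and then 0 to 7, or 1.88%. Gfral and H2-M10.1 were at 0 counts in all 12 Colon 26 tumors, which allows up to 3 counts in each. All 4 genes failed the filter on low counts in tumors, so the models were not compared for them by a test. H2-M10.1 had 2 to 5 counts in the CT-26 tumors of 100 mm3 and 1 to 7 in those of 800 mm3. With Colon 26 tumors set to 3 counts, its mean CT-26 excess there was at least 1.15-fold and 1.29-fold. CT-26 tumors at 3 counts or fewer could thus not be told from Colon 26 tumors. At 400 mm3 it was counted in 1 CT-26 tumor. Gfral was counted in 7 of the 12 CT-26 tumors. Levels below 5% of culture were rare among the 10145 genes on in CT-26 cultures: 30 of them (0.296%) were that low in CT-26 tumors, and 4 of these 30 were in the selected set. Whether the implanted cells or the mixture with host cells account for this was not tested.

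The other 26 genes kept 15.8% to 341% of their culture level in CT-26 tumors. The median over the 30 genes was 63.2%, beside 94.0% over the 10145 genes. Ctla2a (341%), Rgs17, Ogfrl1 (175%), Syt1, B4galt6 (153%), Gap43 (119%), Zik1 (110%) and Ly9 (110%) were above their culture level, which is 8 of 30 genes against 44.0% of the 10145. Prune2, the gene with the highest culture level, had 277 CPM ± 13 (SD, n = 3) in culture and 111 ± 26 (SD, n = 4), 139 ± 3.5 and 126 ± 15 in the tumors of 100, 400 and 800 mm3. Arap2 had 96.3 CPM ± 2.1 in culture and 18.3 ± 1.5, 22.3 ± 4.6 and 21.8 ± 4.4. No test is given, since the CT-26 culture counts chose the genes.

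**Figure D3:**
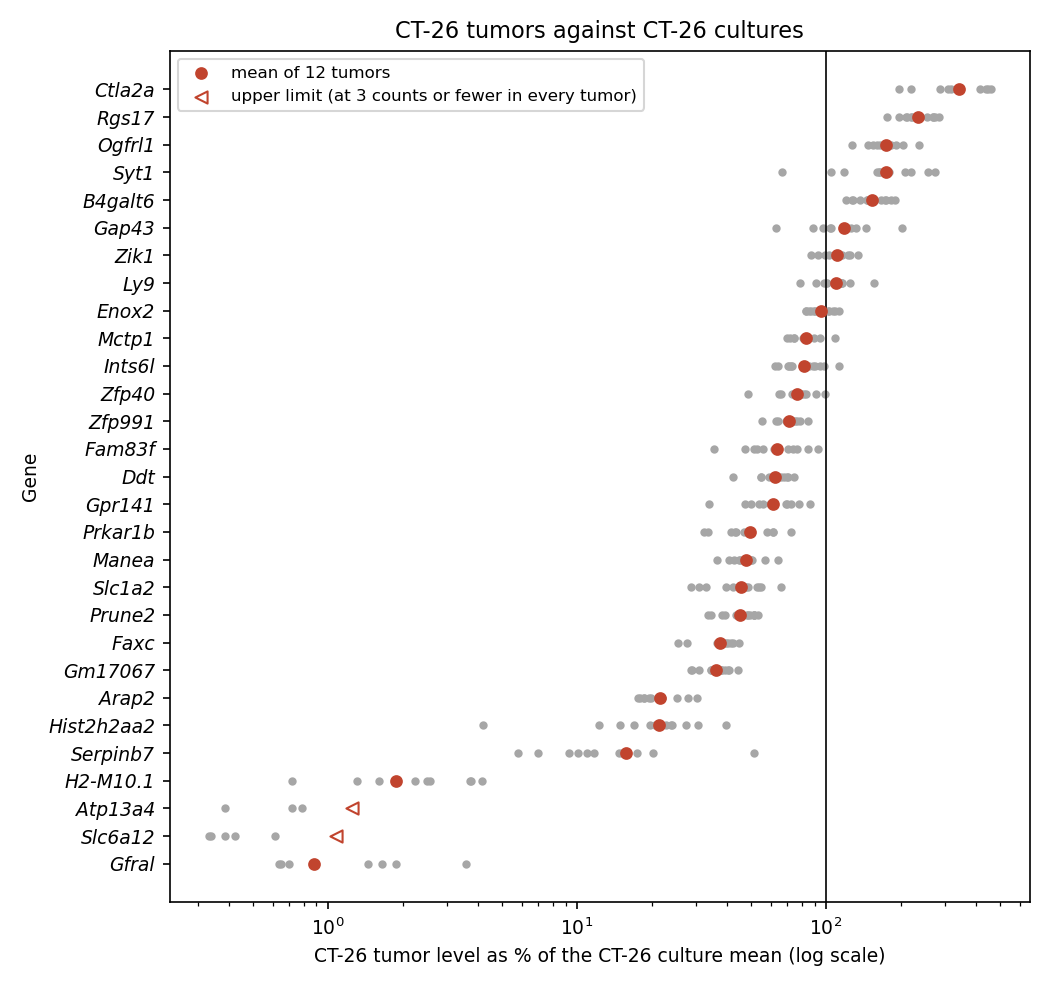
Level in CT-26 tumors as a percentage of the CT-26 culture mean, on a logarithmic axis, for 29 of the 30 genes; red marks are means of 12 tumors, grey dots single tumors with a count above 0, and open triangles upper limits. Gfral, Slc6a12, Atp13a4 and H2-M10.1 lay at or below 1.88%, apart from the other genes, which lay between 15.8% (Serpinb7) and 341% (Ctla2a).

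The third group comprised the 19 genes that were found in every Colon 26 tumor. They passed the filter on low counts in the Colon 26 tumors alone, so their test did not depend on the CT-26 level. A gene was called where edgeR's quasi-likelihood test gave a log2 fold change of 1 or more in size and, after adjustment over all genes tested, a p of 0.1 or less. Of the 19, 15 were called lower in Colon 26 tumors at 100 mm3, 16 at 400 mm3 and 17 at 800 mm3, and 0 were called higher. Over all genes tested, 7.06%, 7.79% and 7.62% were called lower at these volumes. Every CT-26 tumor was above every Colon 26 tumor for 16, 16 and 17 of the 19, against 25%, 22% and 25.3% of all genes tested. Direction was partly carried over from the cultures, where the genes were chosen to be lower in Colon 26.

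Within the 19, the mean level in Colon 26 tumors ran from 5.65% to 98.0% of that in CT-26 tumors, with a median of 25.7%. It was under 25% for 9 genes (among them Zik1, Fam83f, Arap2, Zfp40, Manea, Ly9, Prkar1b and Prune2), between 25% and 55% for 8 (Enox2, Mctp1, Ints6l, B4galt6, Ogfrl1, Zfp991, Ddt and Gpr141), and above 55% for 2 (Hist2h2aa2 and Ctla2a). The lowest share was that of the zinc finger gene Zik1. It had 6.86 to 10.6 CPM in CT-26 and 0.27 to 0.75 CPM in Colon 26 tumors, and its log2 fold change was −3.98 ± 0.21 (SE) at 100 mm3, with an adjusted p of 2.65e-06 by edgeR. Fam83f had 12.1 to 31.4 against 0.39 to 3.05 CPM, and its log2 fold change at 800 mm3 was −4.36 ± 0.31 (adjusted p = 2.68e-06, edgeR). Arap2 had 17.0 to 29.1 against 0.53 to 2.72 CPM, with −3.86 ± 0.32 at 800 mm3 (adjusted p = 7.73e-06, edgeR).

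Prune2 had 95.7, 148, 106 and 92.7 CPM in the CT-26 tumors of 100 mm3 and 35.2, 31.3, 35.5 and 34.8 CPM in the Colon 26 tumors. At 400 mm3 it had 142, 142, 135 and 137 CPM against 38.5, 21.1, 23.4 and 22.9 CPM, and at 800 mm3 120, 109, 142 and 134 CPM against 25.2, 34.6, 34.4 and 21.8 CPM. No CT-26 tumor was as low as any Colon 26 tumor. The log2 fold changes were −1.70 ± 0.15 (SE), −2.39 ± 0.18 and −2.12 ± 0.15, with adjusted p of 2.75e-05, 2.46e-05 and 3.15e-06 by edgeR. The high value in the Colon 26 tumors of 400 mm3, 38.5 CPM, belonged to the library rich in muscle RNA.

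Ly9 had 32.7, 41.2, 26.6 and 29.9 CPM in the CT-26 tumors of 100 mm3 and 4.55, 8.88, 8.99 and 5.04 CPM in the Colon 26 tumors. Across all volumes its CT-26 tumors ran from 20.7 to 41.2 CPM and its Colon 26 tumors from 2.35 to 8.99, without overlap. It was called lower in Colon 26 tumors at each volume, with log2 fold changes of −2.25 ± 0.25 (SE), −2.69 ± 0.32 and −2.39 ± 0.20 and adjusted p of 0.000116, 0.000228 and 8.02e-06 by edgeR. The summed leukocyte markers had the opposite direction, with Colon 26 tumors at 1.48, 1.67 and 1.61 times the CT-26 mean at the 3 volumes, and most of the sum was the myeloid gene Lyz2. By two-sided exact permutation test over 4 against 4 tumors these gave p = 0.086, 0.114 and 0.029, the last being the smallest p the design allows, and 0.06 after adjustment over 27 such tests. Within the same list, Cd8a and Ncr1 ran in the direction of Ly9, while tumor levels of its other lymphocyte genes are not given here. Cd8a, of cytotoxic T cells, had means of 8.10, 13.0 and 7.77 CPM in CT-26 tumors and 3.70, 3.37 and 5.94 CPM in Colon 26 tumors at the 3 volumes, and Ncr1, of natural killer cells, had 5.77, 3.11 and 3.83 CPM against 0.98, 0.92 and 1.34 CPM. Slamf7, a SLAM family gene next to Ly9, had 160.9, 163.5 and 72.3 mean counts in CT-26 and 51.5, 31.5 and 47.0 in Colon 26 tumors. Their part in the difference of Ly9 was not tested. Ly9 was also on in CT-26 cultures, at 26.3 CPM ± 1.7 (SD, n = 3), where Ptprc was at 0.16 CPM.

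Enzymes and regulators were also lower in Colon 26 tumors. Manea, which trims glucose-capped mannose from sugar chains in the Golgi, had 18.2 to 31.8 against 2.88 to 4.87 CPM, with a log2 fold change of −2.65 ± 0.18 (SE, adjusted p = 2.37e-06, edgeR) at 800 mm3. Prkar1b had 6.59 to 14.8 against 1.33 to 2.36 CPM. Zfp40 had 2.37 to 4.82 against 0.41 to 0.85 CPM. Enox2, a cell-surface oxidase, had 11.2 to 15.3 against 1.67 to 4.49 CPM, and Mctp1, a membrane protein with C2 domains, had 3.72 to 5.80 against 0.57 to 2.33 CPM. Ints6l, a relative of an Integrator subunit, had 14.6 to 26.5 against 4.25 to 8.9975 CPM. All of these were called lower in Colon 26 tumors at each volume, and none overlapped over 12 against 12 tumors.

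B4galt6, a synthase of lactosylceramide, and Ogfrl1 were close to 0 in Colon 26 cultures and well above it in Colon 26 tumors. B4galt6 had 9.21 to 20.3 CPM in Colon 26 and 31.7 to 49.8 CPM in CT-26 tumors. Ogfrl1 had 6.75 to 17.7 against 19.6 to 36.4 CPM. Both were called at each volume, but near the fold threshold: B4galt6 had −1.08 ± 0.18 (SE) at 800 mm3 and lost its call (−0.91) without the Colon 26 tumor of 800 mm3 that is replicate 1, and Ogfrl1 had −1.07 ± 0.17 at 100 mm3 and lost it (−0.963 to −0.997) without CT-26 tumor replicate 2 or Colon 26 tumor replicate 1 or 4 of that volume. Ddt had 4.34 to 7.64 against 2.24 to 4.24 CPM, a log2 fold change of −1.01 ± 0.17 (SE) at 100 mm3 and −1.07 ± 0.26 at 400 mm3. Its call was lost at 100 mm3 without CT-26 replicate 1 (−0.92) or Colon 26 replicate 1 (−0.98) or 4 (−0.90), and at 400 mm3 without CT-26 replicate 4 (−0.97) or Colon 26 replicate 2 (−0.98) or 3 (−0.99).

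Ctla2a, Hist2h2aa2, Gpr141 and Zfp991 were not called at 1 or more of the volumes. Ctla2a had 25.8, 25.5, 29.4 and 21.8 CPM in the Colon 26 tumors of 100 mm3 and 22.4, 21.1, 27.6 and 22.2 CPM in the CT-26 tumors, and the models overlapped. It was thus at 98.0% of the CT-26 level over the 12 tumors, after 0, 0 and 2 counts in the Colon 26 cultures. Its log2 fold changes were 0.13 ± 0.11 (SE), 0.22 ± 0.17 and −0.38 ± 0.17, with adjusted p of 0.384, 0.311 and 0.0914 by edgeR, below the fold threshold. Ctla2a shares sequence of at least 95% identity with Ctla2b, Gm49391 and Gm49392, and its counts are uncertain to that extent. Ctla2b moved likewise, from a mean of 164.7 counts in CT-26 and 6.0 in Colon 26 cultures to 267.0 to 388.4 counts in the groups of Colon 26 tumors.

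Gpr141 had 2.81 to 11.2 CPM in Colon 26 and 6.38 to 16.3 CPM in CT-26 tumors. It was called at 800 mm3 with −1.38 ± 0.25 (SE, adjusted p = 0.00118, edgeR), and not at 100 mm3 (−0.60 ± 0.45) or 400 mm3 (−0.92 ± 0.29), where the call was gained without CT-26 replicate 1 (−1.01) or Colon 26 replicate 3 (−1.24). Its neighbour Elmo1, an engulfment gene of many leukocytes, had 1095.7 mean counts in CT-26 and 84.0 in Colon 26 cultures, and 376.5 to 476.5 in Colon 26 tumors against 347.8 to 490.2 in CT-26 tumors. Hist2h2aa2 had 0.35 to 1.54 against 0.27 to 2.56 CPM and was not called at any volume, except at 400 mm3 without CT-26 replicate 4 (−1.29). It is identical over its length with the copy Hist2h2aa1 and shares sequence with 6 other genes, so its counts are uncertain. Of these, Gm20632, Gm20633 and Gm20634 are also identical over its length. Their mean counts were 181.3, 81.0 and 152.6 in CT-26 cultures and 250.5, 139.8 and 32.0 in Colon 26 cultures. How reads were shared among these genes was not tested, and the culture difference of Hist2h2aa2 is uncertain to that extent. Zfp991, which shares sequence of at least 95% identity with 5 other genes over 293 to 2491 bases, missed the fold threshold at 100 mm3 (−0.96 ± 0.11, adjusted p = 0.00011, edgeR), passed it there without CT-26 replicate 4 (−1.02), and was called at the other volumes. Fam83f, Prkar1b, Arap2 and Ddt also share stretches with other annotated genes.

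**Figure D4:**
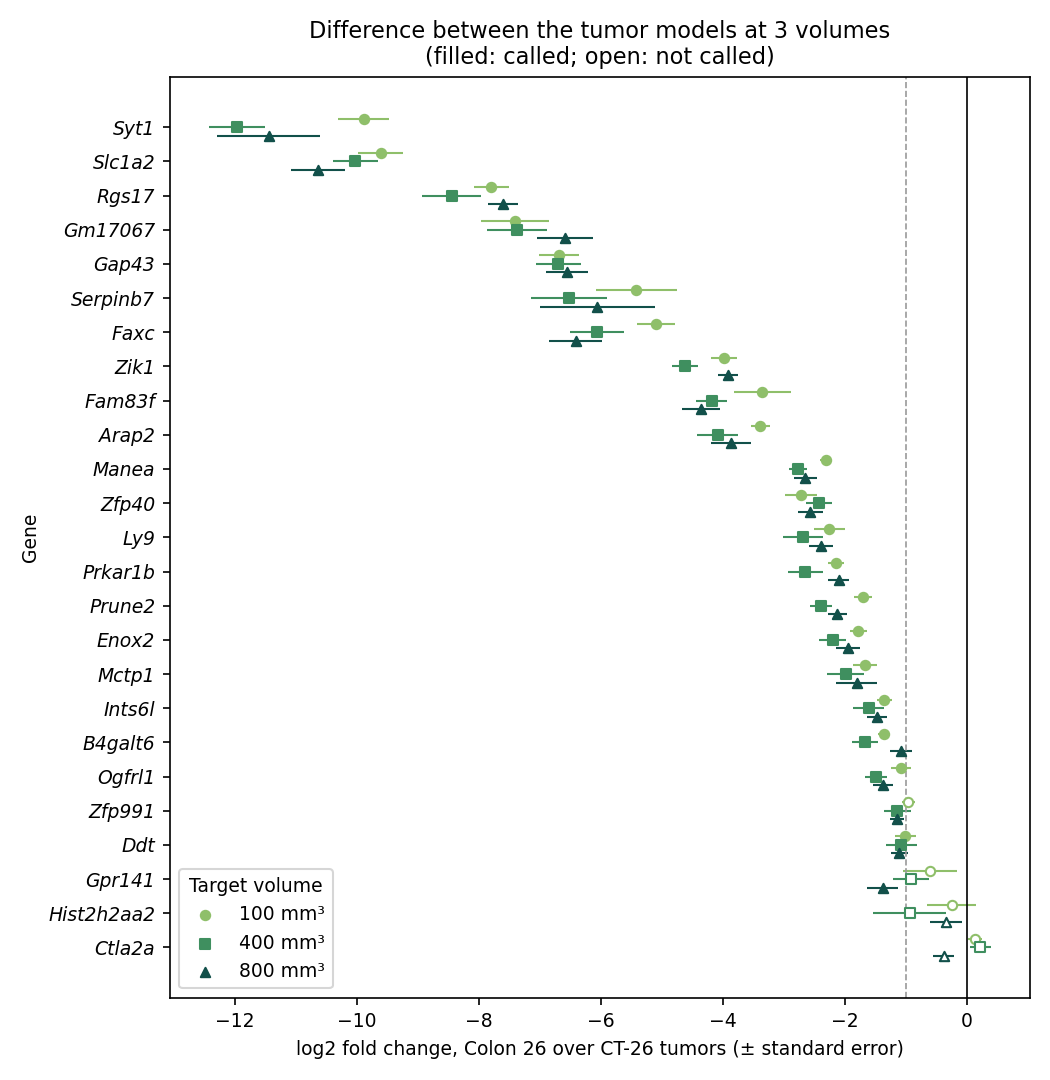
Log2 fold change of Colon 26 over CT-26 tumors, with standard errors, for 25 of the 26 genes tested at 100, 400 and 800 mm3 (4 tumors per model and volume); filled symbols were called and open ones were not, and the dashed line marks a log2 fold change of −1. The uppermost 7 genes had to differ because they passed the filter only through CT-26 tumors, and their values depend on the small count that the fit adds.

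With each gene at its counting limit where it was not found, the median log2 ratio of the 30 genes, Colon 26 over CT-26 tumors, was −1.95 ± 0.10 (SD over 4 Colon 26 tumors) at 100 mm3, −2.33 ± 0.44 at 400 mm3 and −2.11 ± 0.25 at 800 mm3. This median is description, since it includes the 7 genes that had to differ. It also includes 3, 3 and 2 genes at the limit in both models, whose ratios reflect the limits alone. The median edgeR log2 fold change over all genes tested, another measure on another set of genes, was −0.00, 0.03 and −0.01. Without the library rich in muscle RNA the median ratio of the 30 genes at 400 mm3 was −2.50. In that fit 16 of the 19 genes found in every Colon 26 tumor were called lower, against 8.6% of all genes tested. Other markers also moved between the models: pericyte and smooth muscle markers were 2.45, 3.94 and 2.09 times higher in Colon 26 tumors and the colon epithelium list was at 0.15, 0.14 and 0.13 times the CT-26 level. The nerve markers, a list of Schwann cell genes, were 2.80, 2.41 and 3.07 times higher in Colon 26 tumors, with mean sums of 4.49, 4.86 and 4.72 CPM. Each of these gave p = 0.029 by two-sided exact permutation test over 4 against 4 tumors and 0.06 after adjustment. The pericyte and smooth muscle list already differed in culture, with 80.0 to 86.5 CPM in Colon 26 and 6.59 to 7.26 CPM in CT-26 cultures. Its ratio of 3.94 at 400 mm3 includes the library rich in muscle RNA, at 358 CPM against 165 to 176 CPM in the rest of its group. The colon epithelium list includes Krt18, the gene removed by symbol. Krt18 had 9.36 to 13.9 mean CPM in the CT-26 tumor groups and 0.03, 0.03 and 1.81 in the Colon 26 groups. The part of these marker differences in those of the 30 genes was not tested.

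Growth of the tumors was compared within each model from 100 to 400 and to 800 mm3. In CT-26 tumors, edgeR called 0 of 26 genes tested at either volume, against 0% of all genes. DESeq2 also called 0, against 0.547% of all genes at 400 mm3 and 0.141% at 800 mm3. At an unadjusted p under 0.05 there were 4 genes at 400 mm3 (Ctla2a, Fam83f, Prune2 and Syt1) and 2 at 800 mm3 (B4galt6 and Fam83f), against 22.2% and 10.5% of all genes. Fam83f had log2 fold changes of 0.64 ± 0.17 (SE) and 0.45 ± 0.19, with adjusted p of 0.112 and 0.462 by edgeR, and B4galt6 had −0.45 ± 0.09 at 800 mm3 with an adjusted p of 0.417. In Colon 26 tumors, edgeR called 0 of 19 genes tested at 400 mm3, against 0.0131% of all genes, and 0 of 19 at 800 mm3, against 1.33%. DESeq2 called 0 at both, and 2 genes (Ctla2a and Ogfrl1) and 1 gene (Ogfrl1) had an unadjusted p under 0.05 by edgeR, against 12.7% and 20.7% of all genes.

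The comparison of Colon 26 tumors of 400 with 100 mm3 changed with the library rich in muscle RNA. Without it, edgeR called Ly9 lower at 400 mm3, with a log2 fold change of −1.18 ± 0.30 (SE) and an adjusted p of 0.0305, and 11 of the 19 genes tested had an adjusted p of at most 0.1 whatever their fold change, against 28.6% of all genes. The share of all genes called, with the fold threshold, then rose from 0.0131% to 2.55%. Ly9 had 7.00, 2.35, 3.75 and 3.07 CPM in these 4 tumors, the first being that library, which was also high in leukocyte markers, against 4.55, 8.88, 8.99 and 5.04 CPM at 100 mm3. The muscle markers also ran from 130 to 1381 CPM in the Colon 26 tumors of 100 mm3. The change of the difference between the models from 100 to 800 mm3 was tested as an interaction, which edgeR called for 0 of 26 genes, against 0.0308% of all genes. DESeq2 called 0, against 0.384% of all genes. By edgeR 1 gene, Ctla2a, had an unadjusted p under 0.05, against 12.5% of all genes. Its value was −0.52 ± 0.23 (SE), with an adjusted p of 0.364 by edgeR.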

How the data were processed

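RNA-seq was available for 30 libraries, 3 cultures of each line and 4 tumors of each model at each of 3 volumes. Groups were taken from the labels, which carry no replicate numbers, so the numbers used here only name samples. The authors prepared poly-A libraries, processed the reads with Array Studio on Ensembl release 78 genes, and deposited estimated counts per gene, which are not normalised and of which 23.0% of the non-zero values are not whole. They also deposited FPKM, counts scaled by transcript length and library total, which were used to compare levels between genes. The aligner, the genome build and the handling of strand are not given in the sources used here. Per the labels, DESeq2 1.24.0 was used upstream.

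The selection was applied to the estimated counts as deposited. Those were rounded for the tests, although the design had foreseen raw counts. Models were compared at each volume with edgeR 4.0.16 (R 4.3.3, limma 3.58.1): TMM normalisation, filterByExpr, quasi-likelihood test and Benjamini-Hochberg adjustment over all genes tested. CPM used TMM library sizes over all libraries. Genes with 3 counts or fewer in every library of a group were set to 3 counts per library for ratios, and these limits cover counting error only. Standard errors came from the F statistic. The fits were tested on simulated counts. Positions of all 30 genes came from GENCODE M21, in which 97.7% of the table's identifiers were found, promoters from RefSeq (GRCm38.p6), and shared sequence from BLAST 2.17.0 (at least 95% identity over 200 bases). Sums of marker genes were compared by exact permutation tests, two-sided. Alternatives were DESeq2 1.42.0, RLE and library-size scaling, other filters and thresholds, limma on log2(FPKM + 1) or log2(FPKM + 0.1), 1 fit of all 24 tumors and leaving out each library.

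Named genes were those with the highest FPKM in CT-26 cultures and in the tumors, those called or uncalled in each comparison, family members and those next to the thresholds. The genes, lists and tests were chosen with earlier results of these data known. All 42 pairs of replicates of a group differed by more than counting noise, with a variance ratio of 2.91 to 73.9. One gene of the set and one marker gene are counted in the totals but not reported here by name. Other assays of the study were not analysed here.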

Additional observations from a re-analysis of the deposited data

Results flagged for a closer look

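Within the groups of 4 tumors, 7 of 139 gene and group combinations had 1 library set apart from the other 3 by Dixon's criterion (the gap to the nearest library against the whole range, at its 95% critical value). Chance gives about 1 in 20, and 5.04% were found.

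Of these, 3 were in the Colon 26 tumor of 400 mm3 with 2739 CPM of summed skeletal muscle markers (replicate 1). Prune2 had 38.4906 CPM there and 21.1 to 23.4 in the other tumors of the group. Ddt had 4.24305 CPM against 2.24 to 2.38. Ctla2a was low in it, at 15.3233 CPM against 21.01 to 21.2.

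In the CT-26 tumor of 400 mm3 that is replicate 1, Slc1a2 had 26.9695 CPM against 43.9 to 45.7 in the other tumors, and H2-M10.1 had 0.197145 CPM where the others were at 0 counts. Syt1 had 8.35562 CPM in replicate 1 of the CT-26 tumors of 100 mm3 against 13.0 to 13.8. Ctla2a had 22.7179 CPM in replicate 3 of the CT-26 tumors of 800 mm3 against 29.4 to 30.6.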

How the results depend on the processing

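No paired analysis was possible because the labels carry no replicate numbers and tie no tumor of one model to a tumor of the other. The number of genes selected depended on the thresholds. It was 7 with 0 counts in every Colon 26 culture, 58 with 10 or fewer, 50 with 50 or more counts in every CT-26 culture and 19 with 200 or more, against 30 here, and 30 to 36 without 1 culture. The number at the counting limit in every Colon 26 tumor was 2 at 0 counts and 11 at 10 or fewer, against 7, and 7 to 8 without 1 tumor. Of the 19 genes found in every Colon 26 tumor, 15, 16 and 17 were called lower at the 3 volumes. Without 1 tumor these were 13 to 16, 15 to 17 and 16 to 17. The shares of all genes called lower were then 6.75% to 7.66%, 7.54% to 8.6% and 7.55% to 8.24%. Over the other settings they were 11 to 16, 12 to 17 and 11 to 18 of the 19 genes. The highest were those without a minimum fold change, where 30.1%, 26.3% and 31% of all genes were called lower. The lowest were those of limma on log2(FPKM + 1), which called 3.1%, 3.43% and 3.34% of all genes lower. Counted with the 7 genes that had to differ, the genes lower in Colon 26 tumors were 22, 23 and 24. Of all genes tested, 7.06%, 7.79% and 7.62% were called lower. With at least 10 counts in every library the selected genes called lower were 13 at 100 mm3 and 15 at 400 mm3, since fewer were then tested. In those fits 5.28% and 5.86% of all genes were called lower. Without 1 tumor the selected genes called lower were 20 to 23, 22 to 24 and 23 to 24, beside the shares of all genes given above for these fits. The genes changed in Colon 26 tumors from 100 to 400 mm3 were 0 to 1 without 1 tumor, the 1 being Ly9. The fit that called Ly9 called 2.55% of all genes. Of 1379 recomputed log2 fold changes of single genes, 33 lost and 7 gained a call and 0 called values changed sign. Ddt accounted for 15 of the losses, 10 of them at 100 mm3. On log2(FPKM + 1), which shrinks the change of low genes, B4galt6, Ddt, Gpr141, Mctp1, Ogfrl1, Serpinb7, Zfp40 and Zfp991 each lost a call at 1 or more volumes. Depth limits the genes near 3 counts, for which only bounds can be given.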
